A study of Mus musculus with 2 samples.

Results

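The genes described here encode the core of the Hedgehog pathway: the ligands Ihh, Shh and Dhh, the receptor Ptch1, the transducer Smo, the ligand-binding inhibitor Hhip and the transcription factors Gli1, Gli2 and Gli3. The tables write these names in capitals (IHH, SHH, DHH, PTCH1, SMO, HHIP, GLI1, GLI2, GLI3). They were taken by symbol from the deposited gene, promoter and transcript tables, which held 1 gene row for each of the 9 names among 34376 gene rows, 15 of 55830 promoter rows and 22 of 83402 transcript rows. The undifferentiated sample was E14 (129P2/OlaHsd) mouse embryonic stem (ES) cells at passage 29, grown with 15% serum and leukemia inhibitory factor on mitomycin-treated embryonic fibroblast feeders, which were removed by adsorption before RNA preparation, leaving an estimated share below 0.25%. The differentiated sample was the mixed population obtained from the same line, also at passage 29, after 4.5 days on gelatin with 10% serum and all-trans retinoic acid at 0.1 µM. Dead cells were estimated at 2% and 8% of these harvests. Each condition was 1 poly(A) RNA library, read with 36 bp single-end reads on 2 lanes.

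In Hedgehog signalling a secreted ligand binds Ptch1, which otherwise holds Smo inactive. Active Smo works at the primary cilium and changes the processing of Gli2 and Gli3, which can act as activators or be cut into repressors, and Gli3 is the main source of repressor. Gli1, Ptch1 and Hhip are themselves transcribed in response to the pathway in many tissues. In the early embryo Ihh is made by the visceral endoderm of the yolk sac and Shh by the node, notochord and floor plate. Dhh is known later, from Schwann and Sertoli cells.

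Values were taken as RPKM (the tables name no unit), read numbers per kb of model scaled to the depth of each lane, so levels of different genes can be compared. Ratios are log2 of (differentiated + 1) over (undifferentiated + 1), and genes past 2-fold on it were called higher or lower. Each condition being 1 library, the conditions could not be tested against each other and p-values are not printed. Errors written with ± are SDs over both lanes (n = 2 lanes) and cover sequencing and read assignment but not differences between cultures. Among all 34126 gene symbols, 10.0% were higher and 4.45% lower on this rule, and among the 17899 that reached 1 RPKM in a library 19.1% were higher and 8.48% lower. A gene under 1 RPKM in both libraries cannot reach 2-fold with this pseudocount. Both sets of shares therefore rest on the same 3419 higher and 1517 lower genes. The median log2 ratio of the genes that reached 1 RPKM was 0.12. The rescalings shifted it to values from -0.03 to 0.34. The share of higher genes among all calls was 69.3% in the values as deposited, 58.1% after trimmed-mean scaling and 80.6% with equal RPKM sums. Depth was about 37800000 and 36100000 reads in the undifferentiated and 33000000 and 32000000 in the differentiated lanes, as implied by the value of 1 read, so that 1 RPKM stood for 32.0 to 37.8 reads per kb of model in a lane. The 5 ES cell markers listed with the analysis summed to 3333 RPKM before and 255 RPKM after differentiation.

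After differentiation 4 of the 9 genes, Ihh, Smo, Hhip and Gli3, were past 2-fold upward and none was 2-fold lower. Ptch1, Gli1 and Gli2 lay between, and Shh and Dhh stayed under 1 RPKM in both libraries. The 4 of 9 compare with 10.0% of all genes. Of the 7 members that reached 1 RPKM the 4 compare with 19.1%, but Ihh and Hhip reached that level only in the differentiated library, so they had to be higher there. The median log2 ratio was 0.52 over all 9 members and 0.02 over all genes. Lane values of the 2 libraries did not overlap in 7 of the 9 genes, against 64.9% of all genes, and in 5 of the 7 that reached 1 RPKM, against 84.4% of genes at that level. They overlapped in Ptch1 and Gli2. In a mixed population, more cells that express a gene and more RNA per cell cannot be told apart.

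**Figure D1:**
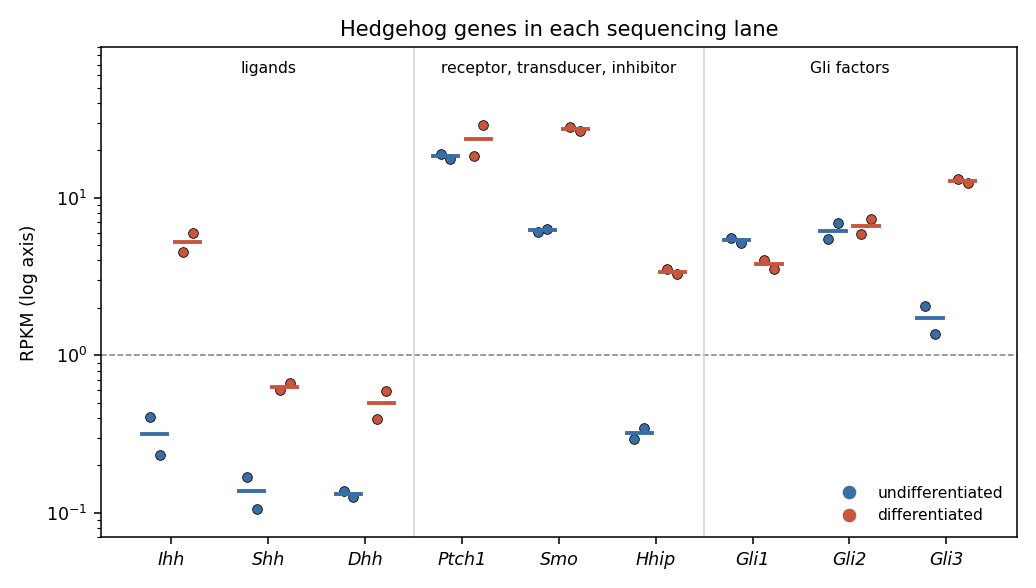
RPKM of the 9 genes on a log axis, with 1 point for each of the 2 lanes of a library and a bar at their mean (blue, undifferentiated; red, differentiated). The dashed line marks 1 RPKM. Ihh, Smo, Hhip and Gli3 stand clearly apart between libraries, from 0.318 to 5.23 RPKM in Ihh, while the points of Ptch1 and Gli2 overlap.

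RefSeq promoters of the 4 genes that were higher together are shown, 1 for each gene, with that of Ptch1, a commonly cited pathway target that was not past 2-fold. These windows were not matched to the deposited promoter rows. Ptch1 had 4 such rows, of which the largest held 56.3% of its sum before and 57.4% after differentiation. RefSeq (GRCm38.p6) gave an entry for 7 of the 9 genes, and the 250 bases before the annotated start are printed 5′ to 3′ on the gene's strand. Capitals mark each GC box, GGGCGG on either strand, the short motif bound by Sp-family factors. The regions are chr1:74951673-74951922 (minus strand) for Ihh, chr6:29735247-29735496 (plus) for Smo, chr8:80058009-80058258 (minus) for Hhip, chr13:15463473-15463722 (plus) for Gli3 and chr13:63565736-63565985 (minus) for Ptch1.
Ihh: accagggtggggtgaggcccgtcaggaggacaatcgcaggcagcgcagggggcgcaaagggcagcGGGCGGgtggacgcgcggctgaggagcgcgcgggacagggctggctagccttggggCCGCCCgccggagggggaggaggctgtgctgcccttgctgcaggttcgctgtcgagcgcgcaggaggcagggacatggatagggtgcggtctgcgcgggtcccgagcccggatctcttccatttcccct
Smo: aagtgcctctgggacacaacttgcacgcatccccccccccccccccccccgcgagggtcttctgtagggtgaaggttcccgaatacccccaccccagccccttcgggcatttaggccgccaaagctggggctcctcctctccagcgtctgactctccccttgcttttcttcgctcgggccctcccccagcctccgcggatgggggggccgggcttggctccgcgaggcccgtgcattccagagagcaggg
Hhip: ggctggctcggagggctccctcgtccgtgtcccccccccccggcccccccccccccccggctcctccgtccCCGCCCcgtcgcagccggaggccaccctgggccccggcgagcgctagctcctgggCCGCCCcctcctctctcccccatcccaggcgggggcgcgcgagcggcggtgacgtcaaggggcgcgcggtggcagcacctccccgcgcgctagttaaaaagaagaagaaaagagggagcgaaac
Gli3: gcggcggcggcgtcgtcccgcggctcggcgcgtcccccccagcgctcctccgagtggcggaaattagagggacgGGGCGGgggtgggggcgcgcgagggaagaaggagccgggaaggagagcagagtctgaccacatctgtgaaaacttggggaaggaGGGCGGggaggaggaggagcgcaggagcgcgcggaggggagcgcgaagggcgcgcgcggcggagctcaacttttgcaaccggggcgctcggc
Ptch1: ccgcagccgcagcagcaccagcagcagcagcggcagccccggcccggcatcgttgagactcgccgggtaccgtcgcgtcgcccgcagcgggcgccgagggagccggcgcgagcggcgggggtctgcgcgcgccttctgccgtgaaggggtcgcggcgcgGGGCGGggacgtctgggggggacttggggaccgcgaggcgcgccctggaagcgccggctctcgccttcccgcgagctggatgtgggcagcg
A GC box was found in 6 of the 7 promoters, all but that of Smo, and in 32.7% of 32851 RefSeq promoters of the same length. The Gli consensus GACCACCCA, searched on both strands, was in none of the 7 and in 0.225% of all promoters, and the nuclear receptor half-site AGGTCA was in none of the 7 and in 14.0% of all. CpG dinucleotides numbered 24 in Ihh, 15 in Smo, 28 in Hhip, 34 in Gli3 and 41 in Ptch1, against a median of 6 in all promoters. Gli2 had 22 and Dhh, the lowest of the 7, had 9. These matches describe letters in a 250 base window and no binding.

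Among the ligands, Ihh (mm9 chromosome 1, 74991891 to 74998246, minus strand) was the 1 that reached 1 RPKM. It stood at 0.404 and 0.232 RPKM in the undifferentiated lanes and at 4.50 and 5.96 in the differentiated lanes. Both differentiated lanes were more than 10-fold above the higher undifferentiated lane. The means of 0.318 ± 0.122 and 5.23 ± 1.03 RPKM gave a log2 ratio of 2.24 (1.97 in lane 1 and 2.50 in lane 2) and an RPKM quotient of 16.4. That ratio was above 95.9% of genes with at least 1 RPKM. At this depth the undifferentiated level corresponded to 15.3 and 8.38 reads per kb of model in the lanes, and the differentiated level to 149 and 191.

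Shh (chromosome 5, 28783355 to 28793641, minus strand), the ligand of notochord and floor plate, was at 0.169 and 0.106 RPKM in the undifferentiated and 0.601 and 0.663 in the differentiated lanes. All 4 values were under 1 RPKM and the libraries did not overlap. The log2 ratio was 0.52, since the pseudocount of 1 exceeds these levels, while the quotient of the means was 4.61. The reads behind it were 6.37 and 3.81 per kb of model in the undifferentiated and 19.9 and 21.2 in the differentiated lanes. Dhh (chromosome 15, 98723458 to 98728971, minus strand) stood at 0.138 and 0.126 RPKM before and at 0.394 and 0.596 after differentiation. It too was under 1 RPKM in all lanes without overlap, with a log2 ratio of 0.40 and a quotient of 3.75. With a pseudocount of 0.1 RPKM the log2 ratios of Shh and Dhh became 1.63 and 1.36, past 2-fold, so whether these ligands count as higher rests on that choice. A few gene models on the opposite strand overlap Shh, and the library kit did not record strand, but none of them exceeded 0.0577 RPKM. Opposite-strand models also overlap Gli1 by 62 bp (0.682 and 0.473 RPKM before and after differentiation). Others overlap Gli2 by 742 bp (0.530 and 0.270) and Gli3 by 502 bp (0.0961 and 0.291).

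Ihh made up 54.2% of the summed RPKM of the 3 ligand genes before and 82.3% after differentiation. The lanes gave 56.9% and 50.0% before and 81.9% and 82.6% after. The sum itself was 0.587 and 6.36 RPKM. Thus most ligand RNA measured after differentiation was Ihh, in both lanes.

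Markers of other cell types differed between the libraries to varying degrees. Counts of higher and lower markers stand beside 10.0% and 4.45% of all genes, and 19.1% and 8.48% of those at 1 RPKM in a library. Markers at 1 RPKM only in the differentiated library had to be higher there, though not by 2-fold. Among them were 4 of the 6 visceral endoderm, 2 of the 7 parietal endoderm and 2 of the 8 mesenchyme markers. Foxa2, Nog, Sox17, Cdh5 and the neural marker Sox1 were also among them. Apoa1, Prrx1 and Sox1 reached 1 RPKM in this way and still lay within 2-fold (log2 ratios 0.78, 0.72 and 0.36). The 6 measured visceral endoderm markers (Ttr, Afp, Amn, Cubn, Apoa1, Hnf4a) summed to 2.83 and 3.19 RPKM in the undifferentiated and 169 and 168 in the differentiated lanes, with 5 of 6 past 2-fold. Cubn alone was at 1.08 and 129 RPKM on average and made up most of the differentiated sum. Ttr and Afp were listed at 0 in undifferentiated lane 2. The 7 parietal endoderm markers summed to 95.9 to 104 RPKM before and 4438 to 4452 after, with all 7 higher. Of 7 notochord and floor plate markers 2 were higher, Foxa2 and Nog, both of which endoderm or mesoderm can also express, and 1 was lower (Ntn1). The list summed to 9.23 to 9.70 RPKM before and 30.2 to 32.5 after, of which Foxa2 was 0.159 and 22.4 on average. Its more restricted members T (0.303 and 0.260 RPKM) and Noto (0.0150 and 0.0164) stayed near 0. Of the known Dhh sources, the markers Sox10, Amh and Cyp17a1 were all under 1 RPKM in both libraries, summing to 0.672 to 1.34 and 1.39 to 1.71. The 8 mesenchyme and fibroblast markers summed to 30.4 RPKM before and 277 after, with 5 higher, and the 5 neural progenitor markers to 11.0 and 40.1, with 1 higher. The higher neural marker was Nes, at 3.15 and 31.7 RPKM, while Pax6 was at 7.05 in both libraries. The 5 gut endoderm markers summed to 262 and 94.3 RPKM and the 4 endothelial markers to 19.5 and 7.99, with 1 higher and 1 lower in each list. In gut endoderm Trh was lower (230 and 2.19 RPKM) and Sox17 higher (0.562 and 48.6). In endothelium Pecam1 was lower (15.9 and 1.26) and Cdh5 higher (0.180 and 1.73). The lower gene made up most of each sum before differentiation, and the other markers of both lists lay within 2-fold. The part of any of these cell types in the ligand values was not tested.

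Smo (chromosome 6, 29685497 to 29711366, plus strand), the seven-pass membrane protein that carries the signal inward, stood at 6.04 and 6.35 RPKM in the undifferentiated lanes. It stood at 28.1 and 26.4 RPKM in the differentiated lanes, far above both. The means were 6.20 ± 0.220 and 27.2 ± 1.22 RPKM, a log2 ratio of 1.97 (2.05 and 1.90 by lane) and a quotient of 4.39. Its lane ratios were among the closest of the members past 2-fold. A 365 bp model without a gene name, ENSMUSG00000081564, lies inside Smo on the same strand and was lower after differentiation, at 14.4 and 9.03 RPKM, so reads in that stretch cannot be assigned to 1 of the 2 with certainty.

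Ptch1 (chromosome 13, 63609644 to 63666828, minus strand), the ligand receptor that represses Smo, stood at 19.1 and 17.7 RPKM before and at 18.4 and 28.8 RPKM after differentiation. One differentiated lane lay inside the undifferentiated range and the other above it. The means of 18.4 ± 0.993 and 23.6 ± 7.37 RPKM gave a log2 ratio of 0.34, with -0.05 in lane 1 and 0.67 in lane 2. Lanes of the 2 libraries were paired by number alone, and the difference in sign depends on that pairing. The quotient of Smo over Ptch1 was 0.337 before differentiation (0.317 and 0.359 by lane) and 1.15 after it (1.53 and 0.915). This quotient of gene rows was higher in both differentiated lanes, and whether Smo exceeded the Ptch1 gene row after differentiation depended on the lane. The full-length transcript form of Ptch1 alone stood at 8.06 and 7.74 RPKM before and at 7.75 and 11.9 after. Smo was below that form in both undifferentiated lanes and above it in both differentiated lanes.

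Hhip (chromosome 8, 82489750 to 82581907, minus strand), a membrane protein that binds all 3 ligands and limits their range, stood at 0.296 and 0.347 RPKM before and at 3.52 and 3.27 RPKM after differentiation. The lanes of each library lay close together and the libraries far apart. The means of 0.322 ± 0.0356 and 3.40 ± 0.173 RPKM gave a log2 ratio of 1.73 (1.80 and 1.67 by lane) and a quotient of 10.6. A separate model, AK083190, lies within the 3′ end of Hhip on the same strand and was listed at 0.264 and 0 RPKM. Hhip remained well below the receptor it competes with: the quotient of the Hhip over the Ptch1 gene row was 0.0175 before and 0.144 after differentiation.

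The 3 Gli genes went different ways. Gli3 (chromosome 13, 15555068 to 15821859, plus strand), the main repressor source, stood at 2.07 and 1.37 RPKM before and at 13.1 and 12.5 RPKM after differentiation. All differentiated values were at least 6-fold above all undifferentiated ones. The means of 1.72 ± 0.489 and 12.8 ± 0.422 RPKM gave a log2 ratio of 2.34 (2.20 and 2.51 by lane), above 96.4% of genes with at least 1 RPKM, and a quotient of 7.44.

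Gli1 (chromosome 10, 126766938 to 126778942, minus strand), an activator whose transcription is widely used as a readout of the pathway, stood at 5.53 and 5.18 RPKM in the undifferentiated and at 4.02 and 3.52 RPKM in the differentiated lanes. It was the 1 member whose mean was below that of undifferentiated cells, and its lanes did not overlap between libraries. The difference was under 2-fold, with a log2 ratio of -0.41 (-0.38 and -0.45 by lane). It stayed negative under all 9 settings tried, between -0.55 and -0.21. Gli2 (chromosome 1, 120730638 to 120950196, minus strand), the main activator among the Gli proteins in the mouse embryo, stood at 5.47 and 6.87 RPKM before and at 5.91 and 7.36 RPKM after differentiation. The lanes overlapped, and the log2 ratio of 0.09 ranged from -0.13 to 0.31 over the settings.

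The balance among the Gli genes therefore differed between the libraries. Gli3 made up 13.0% of the summed Gli RPKM in the undifferentiated library (15.8% and 10.2% by lane) and 55.1% in the differentiated library (56.8% and 53.4%). Gli1 made up 40.4% before and 16.3% after, and Gli2 46.6% and 28.6%. The sum was 13.2 and 23.2 RPKM. RNA levels do not show which share of Gli2 or Gli3 protein was full-length or cut.

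In order of level by gene row, the undifferentiated library had Ptch1 highest, then Smo, Gli2 and Gli1, then Gli3, Hhip, Ihh, Shh and Dhh. Neighbours within Smo, Gli2 and Gli1 overlapped by lane, as did Hhip with Ihh and Shh with Dhh. In the differentiated library the order was Smo, Ptch1, Gli3, Gli2, Ihh, Gli1, Hhip, Shh and Dhh. There only Smo and Ptch1, and Gli2 and Ihh, overlapped as neighbours. Counted by its full-length form alone, at 9.84 RPKM on average, Ptch1 would stand below Gli3 in that library. Gli3 thus stood below Gli1 and Gli2 before differentiation and above both after it.

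Transcript forms separated what the gene sums combine. The tables gave 1 form each for Shh, Dhh and Smo and 2 or more for the other 6 genes, and a gene's value equalled the sum over its forms. Ptch1 was split in a constant way. A short form at the 3′ end of the gene (63609644 to 63615649), which starts 51179 bp downstream of the full-length start, took 56.4% and 56.2% of the sum in the undifferentiated and 57.8% and 57.2% in the differentiated lanes. This short form also runs 3196 bp past the 3′ end of the full-length model. Whether reads in that stretch came from RNA with the full-length start cannot be told from these values, so the split may understate full-length Ptch1. The full-length form (63612840 to 63666828) stood at 8.06 and 7.74 RPKM before and 7.75 and 11.9 after, a log2 ratio of 0.29. Over the full-length form alone, then, the level of Ptch1 was less than that of its gene row, and the difference between libraries was as small.

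**Figure D2:**
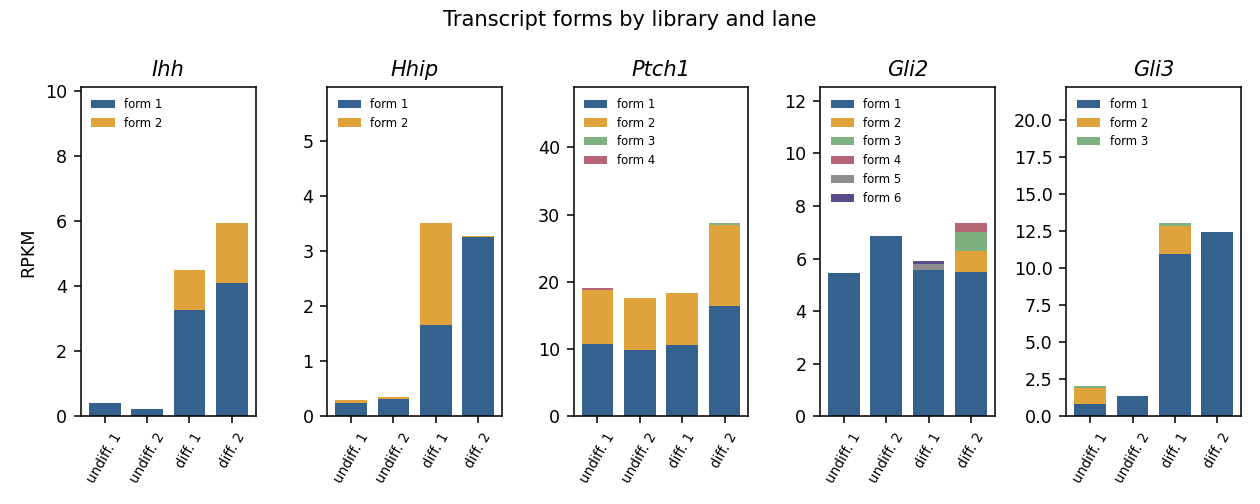
Stacked RPKM of the transcript forms of Ihh, Hhip, Ptch1, Gli2 and Gli3 in each library and lane, with forms numbered by mean level within a gene. Ptch1 keeps its split in all 4 lanes, whereas Hhip and Gli3 are split in lane 1 and almost whole in lane 2 of the differentiated library, and Ihh form 2 appears in both differentiated lanes.

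A shorter form of Ihh was seen almost only after differentiation. The form that ends 2407 bp short of the other (74994298 to 74998225) was at 0.00197 and 0 RPKM in the undifferentiated lanes and at 1.23 and 1.85 RPKM in the differentiated lanes. It held 0.310% of the gene's sum before and 29.4% after, with 27.2% and 31.0% in the separate differentiated lanes. Both lanes gave it a similar share, but the undifferentiated share rests on a gene sum of 0.318 RPKM. Both forms start within 21 bp of each other and belong to 1 promoter row.

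For Hhip and Gli3 the split was not stable between lanes of 1 library. A short Hhip form that starts 67659 bp downstream of the first exon took 52.9% of the sum in lane 1 and 0.645% in lane 2 of the differentiated library, while the gene sums of those lanes, 3.52 and 3.27 RPKM, were close. The full-length Hhip form read 1.66 and 3.25 RPKM there, against 0.240 and 0.318 before, which left it higher in both lanes. In Gli3, a form that starts 488 bp upstream of the main one held 53.9% and 0% in the undifferentiated and 14.7% and 0% in the differentiated lanes. The main Gli3 form stood at 0.830 and 1.37 RPKM before and at 11.0 and 12.5 after, a log2 ratio of 2.60. Of members with at least 1 RPKM in both libraries, 2 promoter rows differed by 20 percentage points or more in share, both of Gli3 (24.9 and -24.9 points). In lane 2 neither did, so these promoter shares rest on lane 1.

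Gli2 had 6 forms, of which the longest took all of the sum in both undifferentiated lanes, 94.1% in lane 1 and 74.8% in lane 2 of the differentiated library. The remaining forms, which end 14322 to 33981 bp short of it, were at 0 in the undifferentiated lanes. The longest form alone was at 6.17 and 5.53 RPKM, a log2 ratio of -0.13, opposite in sign to the gene sum. Gli1 was mostly 1 form, at 95.1% and 96.2% of the sum. Counting the longest form alone, which was chosen after the values were seen, the same number of members, 4, were 2-fold higher.

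Genes that act around the core were counted from 4 lists. Each list is given over all its measured genes beside the 10.0% higher, 4.45% lower and median log2 ratio of 0.02 of all genes. Genes under 1 RPKM in both libraries could not be called, which lowers these shares. Among genes at 1 RPKM in a library 19.1% were higher and 8.48% lower, but those there only through the differentiated library had to be higher in it. Neither comparison is free of selection. Of 6 measured genes for ligand release and lipid modification, 3 were 2-fold higher and none was lower (median log2 ratio 0.85). Of the 6, 4 reached 1 RPKM. Of these 3, Scube1 and Scube2 were at 1 RPKM only after differentiation. The 3 were the secreted Scube proteins, which help release lipid-bearing ligand from cells. Scube3 stood at 1.36 and 1.80 RPKM before and at 20.9 and 20.6 RPKM after differentiation (log2 ratio 3.07). Scube2 stood at 0.267 and 0.846 before and at 8.15 and 18.6 after (3.21), with differentiated lanes that differed more than 2-fold, and Scube1 at 0.394 and 3.37 on average (1.65). Hhat, the acyltransferase that adds palmitate to the ligands, was at 5.07 and 5.00 RPKM (-0.02). Disp1 found no match and is not analysed here.

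The 6 co-receptors and other surface genes reported here were all past 2-fold upward, with a median log2 ratio of 3.52. All 6 reached 1 RPKM, and the shares to set beside them are 10.0% of all genes and 19.1% of genes at that level. Gas1, Boc and Gpc6 were at 1 RPKM only after differentiation. Gas1, a lipid-anchored co-receptor, stood at 0.985 and 0.912 RPKM before and at 55.4 and 59.9 RPKM after differentiation (4.91). Lrp2, the endocytic receptor megalin, which binds Shh and is also abundant in visceral endoderm, was at 2.35 and 62.9 RPKM on average (4.25). The glypicans Gpc6 and Gpc3, of which Gpc3 binds ligand and limits signalling, were at 0.750 and 23.5 RPKM (3.80) and at 33.2 and 321 RPKM (3.23). The co-receptors Cdon and Boc, named after their values were seen, had log2 ratios of 2.12 and 1.99.

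Most intracellular transducers lay within 2-fold. Of 24 genes, all at 1 RPKM or more in a library, 3 were 2-fold higher, none was lower and 21 lay between. The 12.5% higher compare with 19.1% of all genes at that level, and the median log2 ratio of 0.50 with 0.12. With a pseudocount of 0.1 RPKM the transducers past 2-fold upward numbered 6, beside 24.7% of all genes. They also numbered 6 with equal RPKM sums, beside 24.4%, and 1 after trimmed-mean scaling, beside 16.0%. Dyrk2, a kinase that acts on Gli2, was at 3.84 and 3.73 RPKM before and 15.5 and 15.8 after (1.80). Gsk3b, one of the kinases that mark Gli proteins for processing, was at 10.7 and 24.9 RPKM (1.14), and the ciliary motor gene Kif3a at 5.64 and 12.3 (1.01). Prkaca, the catalytic subunit of protein kinase A, the first kinase in that processing, lay just inside the limit at 22.0 and 44.3 RPKM (0.98). Sufu, which holds Gli proteins in the cytoplasm, was at 7.23 and 10.4 RPKM (0.47), and Kif7, the ciliary kinesin that regulates them, at 1.98 and 2.20 (0.11).

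Commonly cited targets outside the core were divided. Of 19 genes 7 were 2-fold higher, 1 was lower and 11 lay between, which is 36.8% and 5.26% against 10.0% and 4.45% of all genes, with a median log2 ratio of 0.18. Of the 15 that reached 1 RPKM, 46.7% were higher and 6.67% lower, against 19.1% and 8.48% of genes at that level. Of the 7 higher genes 6 were at 1 RPKM only after differentiation, all but Ccnd2. All of them respond to other signals as well. Ccnd2, a G1 cyclin, stood at 1.24 and 2.07 RPKM before and at 54.9 and 51.6 RPKM after (4.35). Foxa2, a forkhead factor of endoderm and floor plate, was at 0.159 and 22.4 RPKM on average (4.34), Cyp1b1, a cytochrome P450 enzyme, at 0.473 and 20.7 (3.88) and Hand2, a helix-loop-helix factor of limb and heart, at 0.0183 and 9.20 (3.32). The lower gene was Mycn, a Myc-family transcription factor named after its values were seen, at 75.8 and 33.2 RPKM (-1.17). With equal RPKM sums it too was within 2-fold. Among the core genes named as pathway-induced in many tissues, Hhip was thus higher, and Ptch1 and Gli1 lay within 2-fold.

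**Figure D3:**
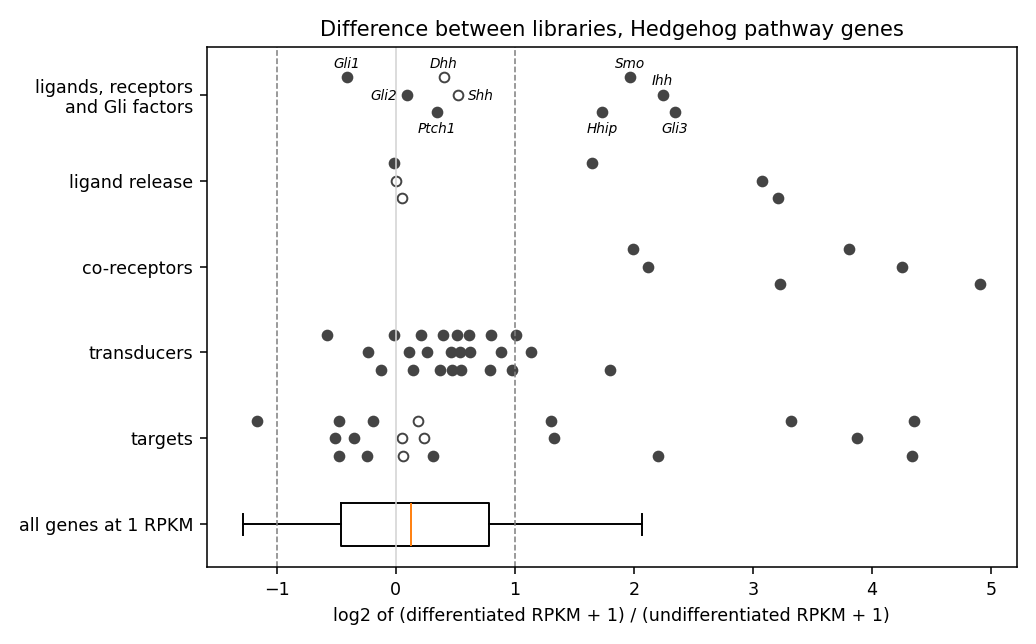
Log2 ratio between libraries for the 9 core genes and for the 4 lists around them, with 1 point a gene (open points, under 1 RPKM in both libraries) and dashed lines at 2-fold. The box gives the quartiles and the whiskers the percentiles 5 and 95 (-1.28 and 2.06) of 17899 genes at 1 RPKM or more. Co-receptors lie to the right, and transducers cluster near 0.5.

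The calls of the core genes were compared across scalings, lanes, pseudocount, row handling and form. Ihh, Smo, Hhip and Gli3 were 2-fold higher in all 9 settings, and Ptch1, Gli1 and Gli2 lay between in all 9. Shh and Dhh lay between in 8, the exception being the smaller pseudocount. Those 8 kept a pseudocount of 1 RPKM, with which genes at such levels cannot reach 2-fold, so they did not test these 2 calls. Summing rows could change no core gene, since each has 1 row. The longest form could not change Shh, Dhh or Smo, which have 1 form. Log2 ratios ranged from 1.83 to 3.67 in Ihh, from 1.81 to 2.21 in Smo, from 1.43 to 3.05 in Hhip and from 2.19 to 2.82 in Gli3.

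**Figure D4:**
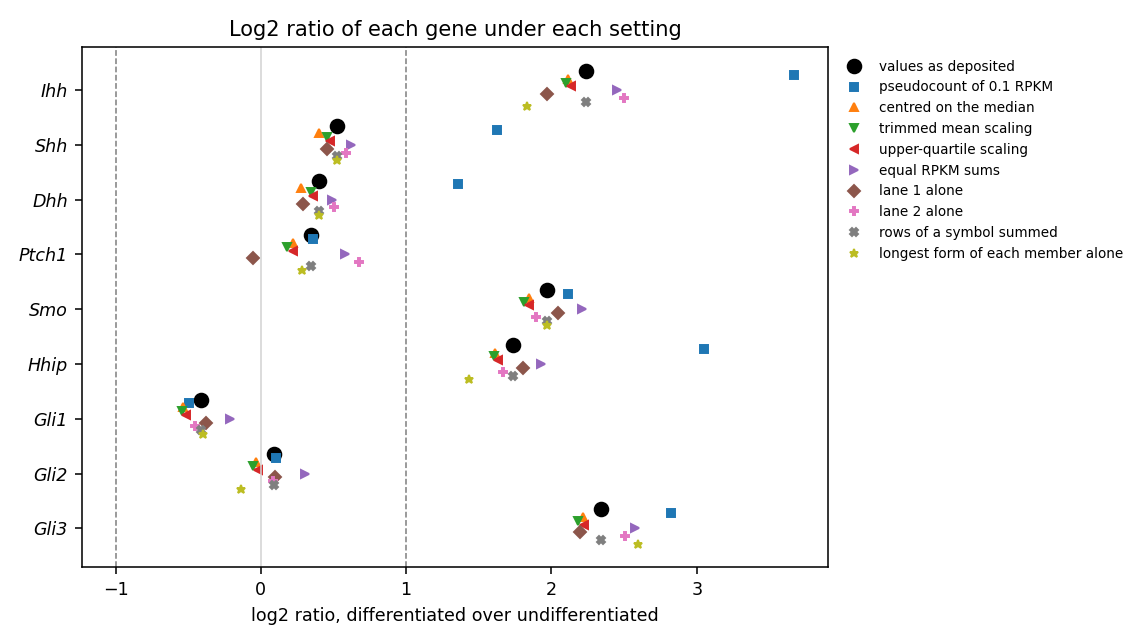
Log2 ratio of each core gene in the values as deposited (large black circle) and in 9 other settings, with dashed lines at 2-fold. The points of Ihh, Smo, Hhip and Gli3 all lie beyond 1, and those of Shh and Dhh pass it with a pseudocount of 0.1 RPKM alone.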

How the data were processed

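RNA of 2 libraries, 1 undifferentiated and 1 differentiated, was measured in 2 lanes each. The tables name no unit. The deposited values were taken as RPKM: in 7980 single-exon genes, value times length came out as a whole number of reads (82.1% to 82.4% of low values, within 5% of a read), and column sums differed between libraries (989605 and 836419). The deposited averages equalled the lane means. The build is mm9, per the submitters' processing notes. For the aligner, counting program and annotation: not given in the sources used here. Coordinates are printed with the first base as 1.

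Ratios used a pseudocount of 1 RPKM, calls a 2-fold difference and a floor of 1 RPKM in either library, and symbols with several rows the row with the highest mean (488 rows share a symbol, none of them a core gene). No test was run, since each group is 1 library. A simulated table was used to check the code. Alternatives were pseudocount, floor, scaling, single lanes and row sums, plus the longest form alone, added after seeing the data. Genes named from each list are the 4 with the largest absolute ratio at the floor, with Sufu and Kif7 always. Some genes of the lists are not reported here, and the counts leave them out. No gene was sought for a pattern like a member's, since 2 libraries give 1 ratio. Members and lists were chosen with earlier results of these data known. Disp1 and Rhox5 found no match and are not analysed here. Python 3.11.15, pandas 2.3.3, numpy 2.4.6 and scipy 1.17.1 were used. All value columns were matched to a sample.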

Additional observations from a re-analysis of the deposited data

How the results depend on the processing

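Among core genes at the floor, the number that were 2-fold higher (4) or lower (0) was the same under the alternatives run. The exception was a floor of 5 RPKM, which Hhip does not reach and at which 3 were higher. With a pseudocount of 0.1 RPKM, Shh and Dhh, which are under the floor and so not in this count, were also past 2-fold upward (1.63 and 1.36). The genes at the floor numbered 7 in the values as deposited, 9 with no floor, 8 at 0.5 RPKM and 6 at 5 RPKM. Their median log2 ratio of 1.73 became 2.12 with a pseudocount of 0.1 RPKM, 1.61 after median centring, 1.60 after trimmed-mean scaling, 1.93 with equal RPKM sums and 1.64 after upper-quartile scaling. It was 0.52 with no floor, 1.13 at a floor of 0.5 RPKM, 1.16 at 5 RPKM and 1.43 with the longest form alone. The cause was not tested beyond the smaller or larger set of genes that a floor leaves.

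Of the lists, the transducers past 2-fold upward numbered 3, but 6 with a pseudocount of 0.1 RPKM, 6 with equal sums and 1 after trimmed-mean scaling. Lower targets numbered 1, but 0 with equal sums, and higher targets numbered 7, but 4 at a floor of 5 RPKM. Promoter rows past 20 points numbered 2, but 0 in lane 2 and 0 where the gene sum had to reach 5 RPKM. Transcript rows past 20 points numbered 2, both of Gli3 (27.7 and -24.9 points), but 1 in lane 2 and 0 at that sum. The 1 in lane 2 was the longest form of Gli2 (-25.2 points), and neither Gli3 row differed in that lane. No paired analysis was possible because each group holds 1 library and the lanes are technical. Levels under 1 RPKM, as of Shh and Dhh, rest on few reads, and no replicate culture bears on any difference.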
